A study of Mus musculus with 12 samples.

Results

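The genes described here are the 82 genes on the array that encode proteins of the cytosolic ribosome. They were chosen by symbol (Rpl, Rps, Rplp0 to Rplp2 and Rpsa, with their protein-coding paralogues) out of 20659 genes that could be named on the array. The symbol rule uses no measured value, but the family was picked with earlier results of these data known. They comprise 48 proteins of the large subunit, 31 of the small subunit and 3 of the stalk, and 171 probes carry them. 81 of them passed the filter on dim probes, which kept a probe where all arrays of 1 group or more gave a signal well above background, and the testis-associated paralogue Rpl39l did not.

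C2C12 cells, a mouse myoblast line that fuses into muscle fibres when it differentiates, were harvested 72 h after transfection. There were 4 groups of 3 one-colour arrays. One received an unspecified negative control, one the expression plasmid pcDNA3.1 (whose sample titles carry an unexplained name), one pcDNA3.1-MEG3, titled as overexpression of the long noncoding RNA MEG3, and one an siRNA titled as a MEG3 knockdown. The labels give no siRNA sequence, no promoter or insert of the plasmid and no statement that replicates came from separate cultures, and the spread behind each p-value may thus be no more than technical.

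The cytosolic ribosome translates nearly all cellular protein, and its small subunit reads the mRNA while its large subunit joins amino acids. Its proteins are made in matched amounts from highly expressed genes. Their mRNAs begin with a pyrimidine tract through which the mTOR kinase, by way of the binding protein Larp1, controls their translation, so that much of the regulation of this family takes place without a change in mRNA level. Several members also act outside the ribosome, among them Rpl5 and Rpl11, which bind Mdm2 and thereby stabilise p53.

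Replicates 1 and 3 of each transfected group carry the same position of the same slide in other scans, and in the negative control they differed by less than the spot noise (0.914 of it), so in every group they were counted as 1 sample, which leaves 8 samples, 2 a group. Replicates 1 and 2 differed by 0.868 of the spot noise in the pcDNA3.1 group and 0.995 in the pcDNA3.1-MEG3 group. If each plasmid group is therefore taken as 1 sample, no call on a member held, and few genes of any kind passed. Negative control replicate 2 stood apart from replicates 1 and 3, by 3.71 and 3.58 times the spot noise. The negative control and the siRNA group each had a slide of their own and the plasmid groups shared another, so slide and group cannot be told apart except between the plasmid groups. The targeted gene went against the plasmid labels: on its brightest probe, mouse Meg3 had log2 levels of -2.47, -2.38 and -2.48 on the pcDNA3.1 arrays, whereas no array labelled pcDNA3.1-MEG3 (-7.93, -6.58 and -7.59) or siRNA (-7.75, -6.88 and -7.74) had it well above background. In the negative control it read -6.79, -6.48 and -7.02, well above background on 1 of 3 arrays. Directions that involve a plasmid group are therefore given for the arrays labelled so.

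Levels below are log2 processed signals minus the 75th percentile of that array. They describe a probe across arrays and do not order the amounts of different transcripts. By signal, the brightest probes belonged to Rpl10, Rpl10a, Rpl37a, Rps27 and Rpl41, with mean levels from 7.05 to 7.29. The dimmest were those of Rpl39l, Rpl10l, Rpl3l, Rps3 and Rps19, from -7.80 to 3.20. No spot on the arrays was saturated.

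The family as a whole varied little between the groups. The median level of the members was 6.67, 6.06 and 6.76 on the negative control arrays, 6.63, 6.47 and 6.54 on the pcDNA3.1 arrays, 6.40, 6.40 and 6.37 on the arrays labelled pcDNA3.1-MEG3, and 6.33, 6.27 and 6.27 on the siRNA arrays. On this scale the siRNA arrays lay below every plasmid array, whereas the negative control arrays spanned a wider range than all others together. That range came from replicate 2, on which 72 of 80 members were lower than in the mean of replicates 1 and 3, by a median of 0.59 (all genes, 0.22). The 75th percentile signal that scales the arrays was 2266 on this array and at most 1601 on the others, and its part in the members' lower levels was not tested.

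**Figure D1:**
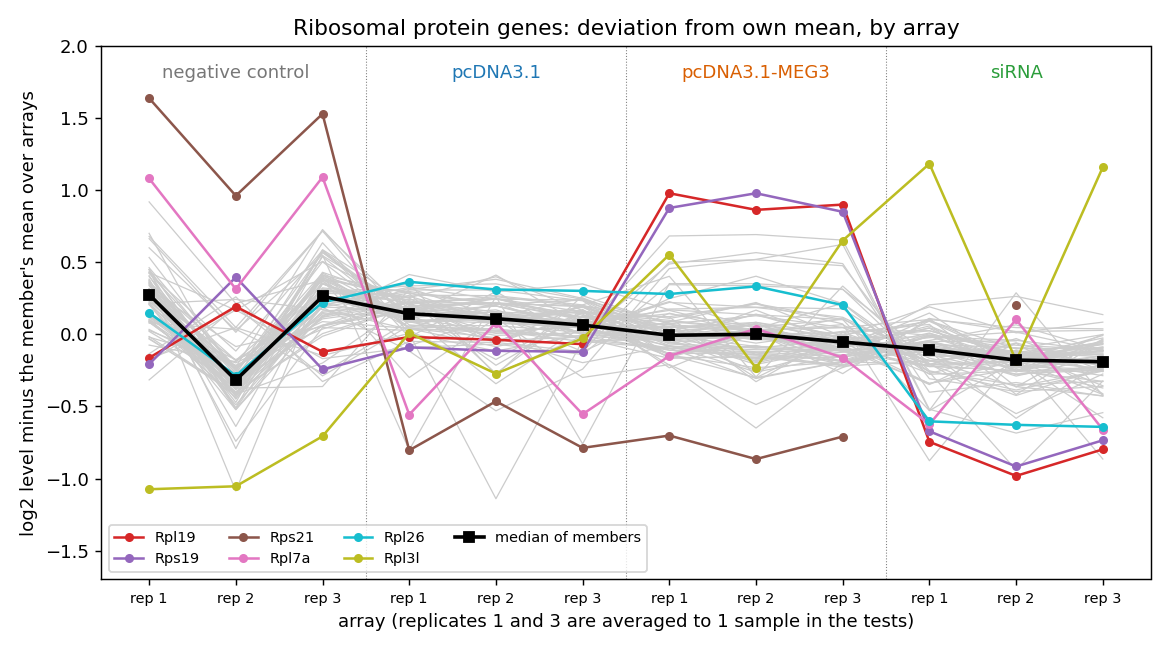
Log2 level of each of the 81 members that passed the filter, minus the member's own mean over the arrays, for the 12 arrays in 4 groups (grey lines; 6 members coloured; black squares, median of the members). The median dips to -0.33 on negative control replicate 2, against 0.27 and 0.26 on replicates 1 and 3, and Rpl19 and Rps19 are high on the arrays labelled pcDNA3.1-MEG3 and low on the siRNA arrays.

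Ranked by group mean, the siRNA group was the lowest of the 4 for 49 of the 80 members with a value in every group (61.3%), while it was the lowest for 28.7% of all genes. The pcDNA3.1 group was the highest for 46 members (57.5%), beside 38.8% of all genes. Only 3 members were highest in the siRNA group. The order depended on the scaling. With arrays centred on their medians the siRNA group was lowest for 27 of 80 members (33.8%, beside 25.5% of all genes). The pcDNA3.1 group was then highest for 2 (2.5%, beside 22.8%). After quantile normalisation these counts were 30 (37.5%, beside 25.6%) and 23 (28.7%, beside 31.9%). These shares are descriptions, since the members share arrays and scaling.

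The comparison of the siRNA group with the negative control addresses the knockdown as labelled, with the low Meg3 levels in both groups given above. Here 1 of 80 members passed, Rpl19, a protein of the large subunit, and it fell. By limma with Benjamini-Hochberg adjustment over all genes, at an adjusted p under 0.05, 12.4% of all genes passed, 7.77% higher and 4.66% lower, so that the members' share of 1.25% lay below this background. The median difference of the members was -0.17 (lower in siRNA), with 67 of 80 below zero, while the median of all genes was 0.06; the members' median stayed below zero under each scaling tried, between -0.35 and -0.06. The members were also less spread, with an interquartile range of 0.275 on the log2 scale against 0.757 for all genes.

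That median changed with the negative control sample. Without negative control replicate 2 the median was -0.45, and without replicates 1 and 3 it was 0.14. The direction of the family between siRNA and negative control therefore differs with the control sample that is used.

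Rpl19 had levels of 4.80, 5.16 and 4.84 on the negative control arrays and 4.22, 3.98 and 4.16 on the siRNA arrays. The groups did not overlap. The difference was -0.90 (SE 0.17, limma adjusted p = 0.0260), a 1.87-fold lower level. It passed in 6 of 11 other settings and in 3 of 8 fits that left out a sample, with adjusted p from 0.000247 to 0.222 and from 0.00841 to 0.0795, and it kept its sign throughout these.

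The other members with the lowest differences in this comparison did not pass. Rps21, a small subunit protein, stood at 6.29, 5.61 and 6.18 in the negative control and at 4.86 on the 1 siRNA array whose spots were not outlying, a difference of -1.07 (limma adjusted p = 0.106). Rpl7a, of the large subunit, had a difference of -0.97 (limma adjusted p = 0.166), and its siRNA arrays disagreed at 5.16, 5.89 and 5.12. Rps19, a small subunit protein mutated in Diamond-Blackfan anaemia, came to -0.90 (limma adjusted p = 0.0572), and Rpl5 to -0.83 with siRNA levels of 4.65, 5.38 and 4.67.

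The highest differences belonged to Rpl3l, Rpl37 and Rps2. Rpl3l, the paralogue that takes the place of Rpl3 in ribosomes of striated muscle, read -6.44, -6.42 and -6.07 on the negative control arrays, of which 2 were well above background, and -4.18, -5.55 and -4.21 on the siRNA arrays, all above it. The siRNA arrays were all higher, but replicate 2 lay well below the other siRNA arrays, and the difference of 1.47, at least 2.72-fold against the detection limit, did not pass (limma adjusted p = 0.110). Rpl3 itself, the ubiquitous form, differed by 0.15. Rpl37, of the large subunit, and Rps2, of the small subunit, differed by 0.34 and 0.32, and neither passed.

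Markers of differentiated muscle moved with this comparison. All 8 of the listed markers (Myog, Mymk, Mymx, Myh3, Actc1, Ckm, Tnnt3 and Acta1) rose, with a median difference of 3.63, and their linear levels summed to between 34.0 and 41.6 on the siRNA arrays, against 7.27 to 8.69 in the negative control, 2.34 to 2.53 in pcDNA3.1 and 2.91 on each array labelled pcDNA3.1-MEG3. The myoblast markers Myod1 and Cdh15 rose too, by 2.29 and 1.41, and Myf5 fell by 2.86; Myod1, Myog and Cdh15 were well above background on all 12 arrays. None of the 4 endothelial, 3 measured leukocyte or 5 adipocyte markers passed here. The part of these muscle genes in the members' levels was not tested. In bulk RNA, fewer cells of a type and less RNA per cell cannot be told apart.

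The siRNA group was also set against the mean of both plasmid groups. Here 7 of 81 members fell and 0 rose: Rpl19, Rps19, Rpl28, Rpl26, Rpl21, Rpl18 and Rpl17. In this comparison 18.7% of all genes passed, 10.6% higher and 8.12% lower, so that the members' share of 8.64%, all lower, was near the background for lower genes. The median difference was -0.18 (all genes, -0.11), but it turned to 0.05 when arrays were centred on their medians, where the median over all genes became 0.12; the members lay 0.07 below all genes under both. The interquartile range was 0.247, against 0.912 for all genes. Of the 8 markers of differentiated muscle, 7 rose here as well, with a median difference of 3.35. The myoblast markers Myod1, Cdh15 and Myf5, 3 of 5 measured, rose by 2.00, 1.42 and 1.70. Myf5 was well above background on only 2 of 3 pcDNA3.1 arrays and 1 of 3 labelled pcDNA3.1-MEG3, so its value is set against near-background levels. The summed linear level of the 5 was 3.40 to 3.62 on the siRNA arrays against 1.15 to 1.77 on the plasmid arrays. Of 6 fibroblast markers, Col1a1 and Dcn rose, by 2.21 and 0.68, and Twist2 fell by 0.83, with a summed level of 264 to 321 against 176 to 202. Fabp4, 1 of 5 adipocyte markers, rose by 1.34, and no endothelial or leukocyte marker passed. The part of these markers in the members' values was not tested.

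**Figure D2:**
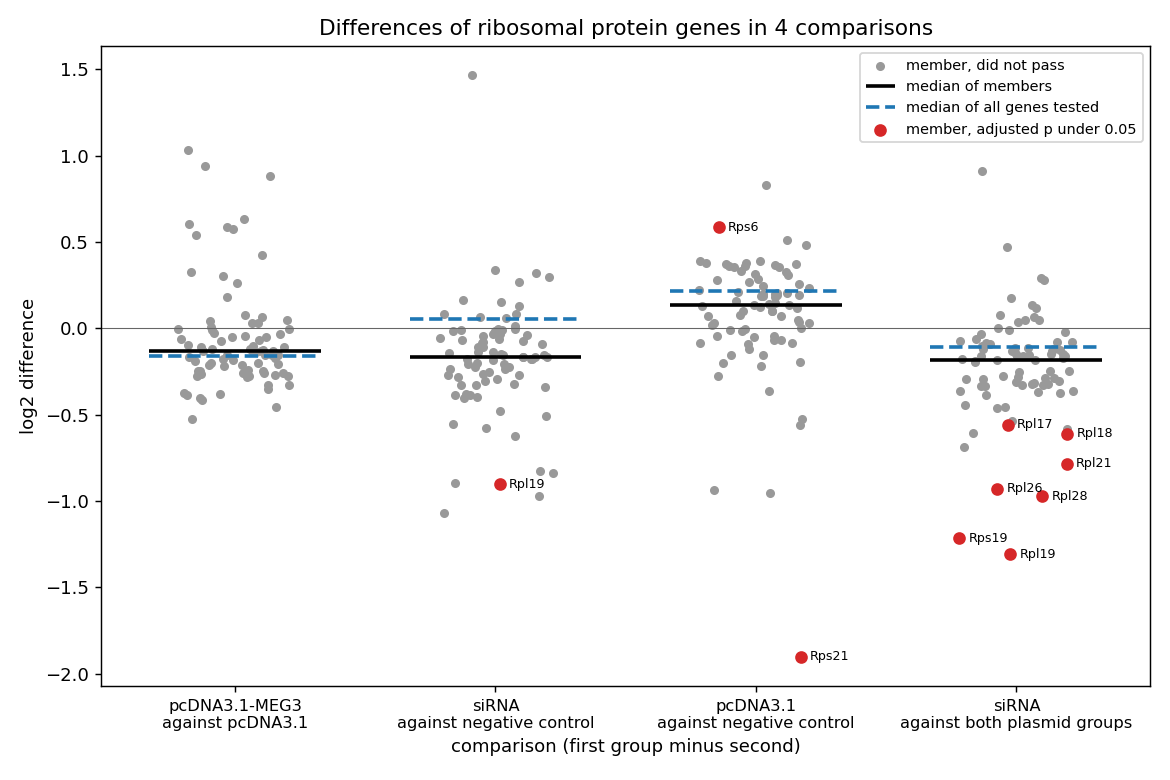
Log2 difference of each member in the 4 comparisons (points; red, adjusted p under 0.05 by limma, with names), with the median of the members (black bar) and of all genes tested (blue dashed bar). The members cluster near the medians of all genes, with 0, 1, 2 and 7 past the threshold; the sign of the members' median turns under median centring in both comparisons on the right, under quantile normalisation and in the series table in the first, without negative control replicates 1 and 3 in the second, and without negative control replicate 2 in the third.

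Rpl19 gave the lowest of these values. It read 4.94, 4.92 and 4.89 on the pcDNA3.1 arrays and 5.94, 5.83 and 5.86 on those labelled pcDNA3.1-MEG3, against 4.22, 3.98 and 4.16 with siRNA. All siRNA arrays lay below all plasmid arrays, and the plasmid groups did not overlap each other. The difference was -1.31 (SE 0.15, limma adjusted p = 0.00362), a 2.47-fold lower level, and it passed in each of 8 fits that left out a sample.

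Rps19 followed the same order. Its levels were 3.11, 3.09 and 3.08 in pcDNA3.1, 4.08, 4.18 and 4.05 on the arrays labelled pcDNA3.1-MEG3, and 2.53, 2.29 and 2.47 with siRNA. It fell by 1.22 on the log2 scale (SE 0.20, limma adjusted p = 0.0121), 2.32-fold, with no overlap between groups. Without either pcDNA3.1-MEG3 sample the adjusted p rose to at most 0.0575.

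Rpl28, a large subunit protein, stood at 4.77, 4.77 and 4.72 in pcDNA3.1, at 5.39, 5.40 and 5.36 on the arrays labelled pcDNA3.1-MEG3 and at 4.19, 4.02 and 4.16 with siRNA, a difference of -0.97 (SE 0.17, limma adjusted p = 0.0144). Rpl18, also of the large subunit, had 4.05, 3.92 and 4.04, then 4.53, 4.61 and 4.53, then 3.64, 3.70 and 3.61 in these groups, a difference of -0.61 (SE 0.12, limma adjusted p = 0.0232). In both, the siRNA arrays were lowest and the arrays labelled pcDNA3.1-MEG3 highest of all 12 arrays. Rpl18 and Rpl28 passed in 2 and 4 of 8 fits that left out a sample.

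On the probes used, Rpl26 and Rpl17 had a different pattern, level in both plasmid groups and low with siRNA. Rpl26, a large subunit protein that also binds the p53 mRNA, read 6.52, 6.47 and 6.46 in pcDNA3.1, 6.44, 6.49 and 6.36 on the arrays labelled pcDNA3.1-MEG3 and 5.56, 5.53 and 5.52 with siRNA, a difference of -0.93 (SE 0.16, limma adjusted p = 0.0144). Its other probes were low with siRNA as well, the second from 6.01 to 6.23 on the plasmid arrays and from 5.28 to 5.49 on the siRNA arrays. These other probes were also higher on every array labelled pcDNA3.1-MEG3 than on any pcDNA3.1 array, by means of 0.10 and 0.21. Rpl17, which lines the exit tunnel of the large subunit, read from 6.19 to 6.31 on the plasmid arrays and 5.72 and 5.66 on the siRNA arrays with a value, a difference of -0.56 (SE 0.12, limma adjusted p = 0.0311). Its replicate 1 spot was outlying on the siRNA array, so that sample rests on replicate 3 alone. The other Rpl17 probes differed between the plasmid groups (pcDNA3.1-MEG3 minus pcDNA3.1 as labelled) by -0.49 to 0.33. Rpl17 no longer passed with the mean of its probes (-0.18, limma adjusted p = 0.431), the highest of its adjusted p over the 11 other settings, whose lowest was 0.00101.

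Rpl21, of the large subunit, had 5.13, 5.12 and 5.07 in pcDNA3.1, 5.34, 5.50 and 5.31 on the arrays labelled pcDNA3.1-MEG3 and 4.83, 4.15 and 4.77 with siRNA. The siRNA samples differed from each other more than the plasmid groups did. The difference was -0.78 (SE 0.20, limma adjusted p = 0.0448), -0.46 without siRNA replicate 2 (limma adjusted p = 0.131) and -1.11 without siRNA replicates 1 and 3.

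**Figure D3:**
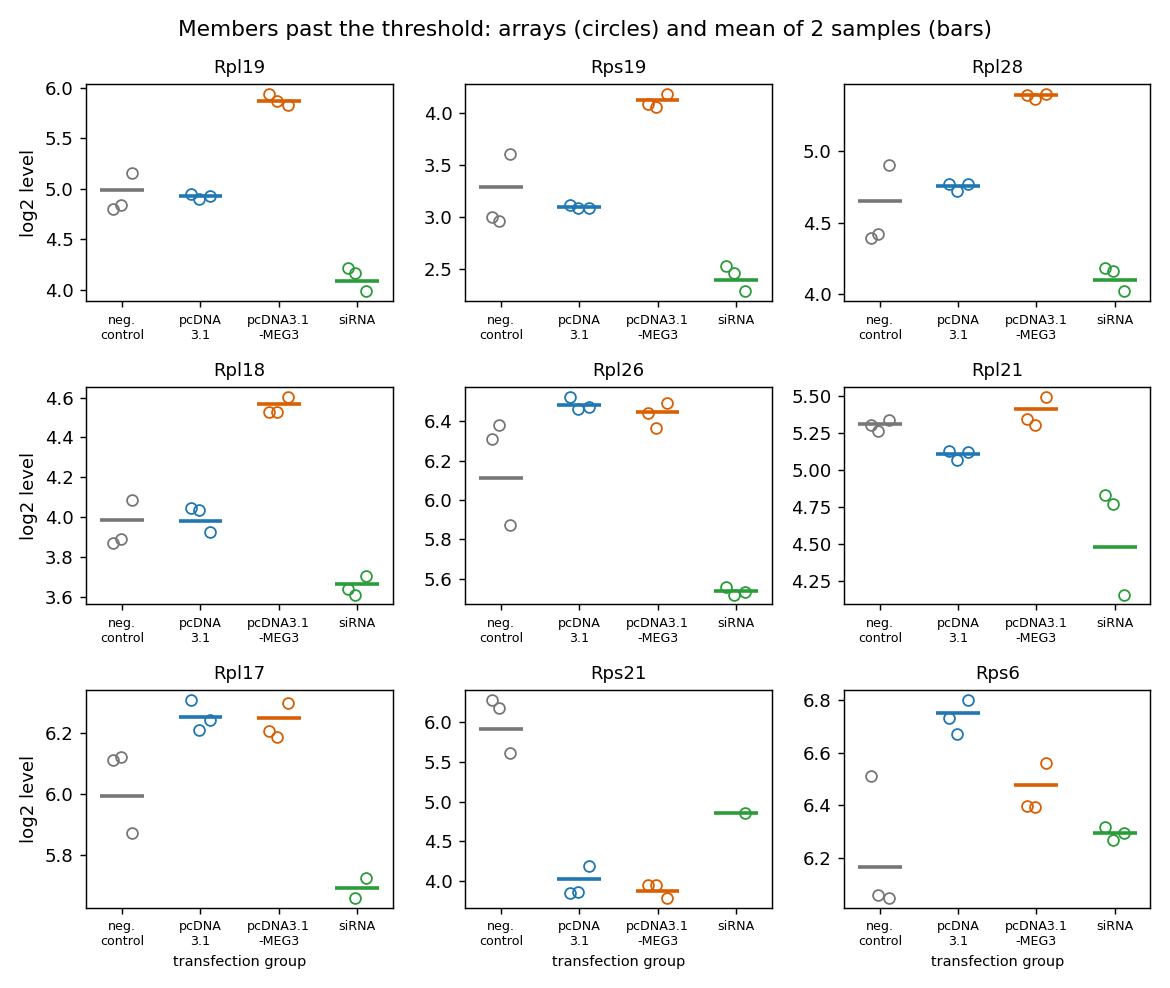
Log2 level of the 9 members that passed in at least 1 comparison, by transfection group (circles, arrays; bars, mean of the 2 samples of the group; each panel has its own level axis). Rpl19, Rps19, Rpl28 and Rpl18 are highest on the arrays labelled pcDNA3.1-MEG3, Rpl26 and Rpl17 are level in both plasmid groups, and Rps21 is highest in the negative control.

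The number of members called against the plasmid groups depended on which samples entered the fit. It was 24 lower and 2 higher without either negative control sample, where 38.4% of all genes passed, 2 lower without either pcDNA3.1 sample, where 8.57% and 9.10% of all genes passed, and 1 lower without either sample labelled pcDNA3.1-MEG3, where 7.10% and 6.70% passed.

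At the other end, Rps21 read 3.85, 4.19 and 3.86 in pcDNA3.1, 3.95, 3.78 and 3.94 on the arrays labelled pcDNA3.1-MEG3 and 4.86 on the siRNA array with a value, a difference of 0.91 that did not pass (limma adjusted p = 0.0974). Rpl3l and Rpl15, of the large subunit, followed with 0.47 and 0.29, and neither passed. Rpl15 lay between 6.22 and 6.45 on the plasmid arrays and between 6.55 and 6.68 on the siRNA arrays, without overlap.

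The plasmid comparison addresses overexpression, with the reservation on the labels given above. None of 81 members passed in limma, and 2 of 24565 genes did (0.00814%). At an unadjusted p under 0.05, 8 members and 2497 genes were counted. The median difference of the members was -0.13 (arrays labelled pcDNA3.1-MEG3 lower), near the -0.16 of all genes, and it was 0.03 after quantile normalisation and 0.04 in the authors' series table. Within the first and second scan of the slide that both groups share, the median was -0.14 each time.

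The highest differences were those of Rps19, 1.03 (SE 0.23, limma adjusted p = 0.237), Rpl19, 0.94 (SE 0.17, limma adjusted p = 0.180), and Rpl10l, 0.88 (limma adjusted p = 0.426). The levels of Rps19 and Rpl19 given above show no overlap between the plasmid groups and a gap far larger than the spread within them. Replicates of these groups differed by no more than about the spot noise, so that spread may hold no variation between cultures. Within the scans Rps19 differed by 1.03 and 0.97 and Rpl19 by 0.95 and 0.97. Both passed when the plasmid groups were fitted alone, at limma adjusted p = 0.0194 and 0.0188, in a fit that called 7.96% of all genes and 6 members, all higher. Rpl10l, a testis-associated copy of Rpl10, was well above background on 1 pcDNA3.1 array and on all 3 labelled pcDNA3.1-MEG3, which gives an at least 1.77-fold higher level there. A bound of this kind sets the brighter group against the detection limit of the dimmer one.

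Rpl28, Rpl18 and Rps18 had differences of 0.63, 0.58 and 0.57, none of which passed. In all, 11 of 80 members (13.8%) had their highest group mean on the arrays labelled pcDNA3.1-MEG3 and their lowest with siRNA. This held for 8.77% of all genes. Among these members were Rps19, Rpl19, Rpl28, Rpl18, Rps18, Rpl21, Rpl13a, Rps9, Rps7 and Rpl31. The count was 5 (6.25%, beside 6.24% of all genes) with median centring and 11 (13.8%, beside 5.27%) with normexp background correction. With the 95th percentile and with quantile normalisation it was 17 (21.2%, beside 10.8% and 7.95%). In the authors' series table it was 17 of 81 (21%, beside 8.78%). This grouping was made after the levels were seen. The lowest differences between the plasmid groups were those of Rpl36, Rpl34 and Rpl36al, all of the large subunit, at -0.52, -0.45 and -0.42, and none passed.

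The comparison of pcDNA3.1 with the negative control sets against each other the groups whose labels name no MEG3 construct or siRNA, although Meg3 was well above background on every pcDNA3.1 array. Of 80 members, Rps6 rose and Rps21 fell, 2.5% of the members beside 17.9% of all genes (11.3% higher, 6.64% lower). The median difference was 0.13 (pcDNA3.1 higher) and that of all genes 0.22, and the members' median was -0.31 under median centring, when that of all genes was -0.23. It was -0.14 without negative control replicate 2, with 1 member higher and 9 lower (30.3% of all genes called), and 0.43 without replicates 1 and 3, with 34 higher and 3 lower (37.4%). Of the marker lists, Ckm rose by 1.16 and Acta1 fell by 3.06 among 8 of differentiated muscle, Myf5, from a mean level of -1.99 to -6.39 with 2 of 3 pcDNA3.1 arrays well above background, fell among 5 of myoblasts, and Dcn fell by 0.50 among 6 of fibroblasts. The adipocyte marker Adipoq was lower, at least 2.01-fold, since no pcDNA3.1 array had it well above background. The part of these genes in the members' values was not tested.

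Rps21 stood at 6.29, 5.61 and 6.18 in the negative control against 3.85, 4.19 and 3.86 in pcDNA3.1. The groups lay far apart, at -1.90 (SE 0.27, limma adjusted p = 0.0149), a 3.74-fold lower level. It passed in 10 of 11 other settings and 6 of 8 fits that left out a sample.

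Rps6, the substrate of S6 kinase in the small subunit, read 6.51, 6.05 and 6.06 in the negative control and 6.73, 6.80 and 6.67 in pcDNA3.1. Every pcDNA3.1 array was higher, and negative control replicate 1 lay nearest to them although it counts as 1 sample with replicate 3. The difference was 0.59 (SE 0.15, limma adjusted p = 0.0470), and it passed in 2 of 11 other settings, falling to 0.14 under median centring (limma adjusted p = 0.576; lowest over the settings, 0.00560). Its other probes were higher in pcDNA3.1 as well, at 5.28 to 5.34 against 5.12 to 5.20 and at 2.78 to 2.80 against 2.21 to 2.34.

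Rpl7a had a difference of -0.94 that did not pass, and its pcDNA3.1 arrays disagreed, with replicate 2 above the others, at 5.23, 5.86 and 5.23. Rpl3l had the highest difference, 0.83, at least 1.75-fold, and Rpl9, of the large subunit, had 0.51, with negative control levels of 7.08, 5.62 and 7.08. Neither passed.

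Probes of the same gene often disagreed. Of 50 members with another kept probe, the other probe ran opposite to the one used in 25 members between the plasmid groups, in 16 between siRNA and negative control, in 24 between pcDNA3.1 and negative control and in 13 between siRNA and the plasmid groups. Rpl7a shows how far this went. Its probe used here was highest in the negative control, at 6.86, 6.10 and 6.87, whereas probe A_55_P2039598 of the same gene was highest on the arrays labelled pcDNA3.1-MEG3, at 4.31, 4.36 and 4.30, and read 2.71, 2.71 and 2.68 with siRNA. Rpl7a is therefore uncertain, as are other members with near-identical pseudogene copies, whose transcripts a probe may not separate.

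**Figure D4:**
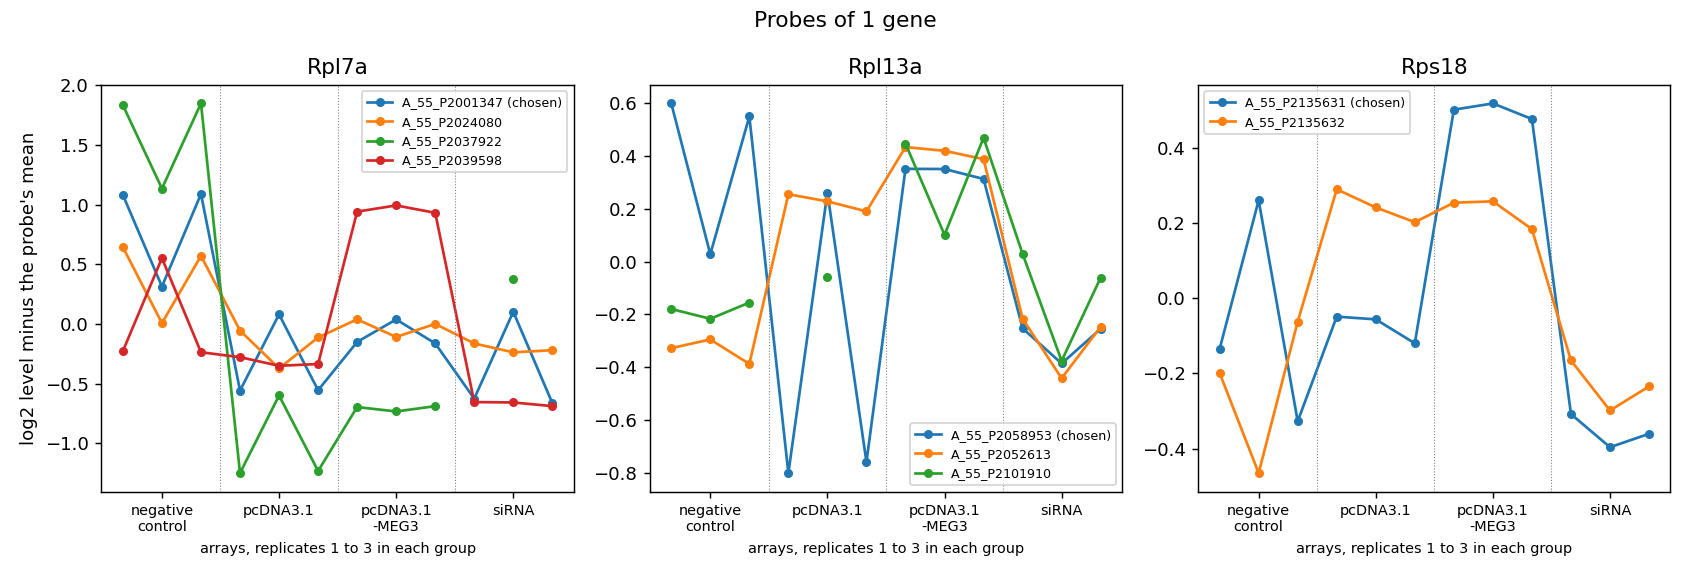
Log2 level of each kept probe of Rpl7a, Rpl13a and Rps18 minus that probe's own mean, over the 12 arrays in their groups (the probe used for the gene is marked as chosen; gaps are outlying spots). For Rpl7a, 3 probes are highest in the negative control and A_55_P2039598 is highest on the arrays labelled pcDNA3.1-MEG3.

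Among the members with roles outside the ribosome, Rpl5 had siRNA differences of -0.83 (SE 0.28) against the negative control and -0.69 (SE 0.27) against the plasmid groups, and Rpl11 had -0.15 (SE 0.30) and -0.31 (SE 0.26). The difference between these genes was not tested. Rpl23, a further Mdm2-binding protein, differed by -0.15 and -0.01. None of these passed. Rpl13a, which also silences inflammatory mRNAs, had 5.89, 5.32 and 5.84 in the negative control and 5.04, 4.91 and 5.04 with siRNA, a difference of -0.62 that did not pass, and its pcDNA3.1 arrays disagreed at 4.49, 5.55 and 4.53. The other kept probes of Rpl13a differed by only -0.01 and -0.004 between siRNA and negative control. Rps27a, which is made as a fusion with ubiquitin, and Rpsa, the laminin receptor protein, stayed within 0.33 of zero in every comparison and did not pass. For Rps3, a small subunit protein with DNA repair activity, the brightest probe was outlying on 8 of 12 arrays and gave no negative control value; its other probe read between -0.25 and 0.27 on all arrays.

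The stalk proteins Rplp0, Rplp1 and Rplp2, which recruit the elongation factors, had medians of -0.27 against the negative control and -0.15 against the plasmid groups, and none passed. Rplp1 was the lowest against the plasmid groups, at -0.54. Large and small subunit members had like medians, -0.16 and -0.15 for siRNA against negative control and -0.18 each against the plasmid groups, where 6 large and 1 small subunit members fell.

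Paralogue pairs were compared within each gene's own probe. Rpl36a and Rpl36al differed by 0.35 and -0.36 between pcDNA3.1 and negative control, opposite in sign, and by -0.01 and -0.51 between siRNA and negative control. Rps27 and the p53-induced Rps27l ran together, at 0.27 and 0.28 in the former and 0.00 and -0.03 in the latter. Rpl22, which binds and represses the mRNA of its paralogue Rpl22l1, and Rpl22l1 itself had -0.33 and -0.28 with siRNA against the negative control. Rpl7 had -0.12 against the plasmid groups and Rpl7l1, a nucleolar relative outside the naming rule, fell by 0.75 (SE 0.17, limma adjusted p = 0.0346). Apart from Rpl7l1, no paralogue difference in this paragraph passed. Rps4x had -0.21 with siRNA against the negative control, and Rpl39 had -0.01, while Rpl39l was well above background on 2 arrays only, both labelled pcDNA3.1-MEG3. In that group Rpl39l read -5.26 and -5.03 on replicates 1 and 3, which count as 1 sample, and -9.09 on replicate 2.

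The start regions are shown for the members that passed, so that their sequences can be set beside their levels. RefSeq on GRCm38.p6 supplied 62 of the 82 members, and 7 of the 9 that passed, with a window of 250 bases before to 50 after a transcript start. An ETS core, CCGGAAG on either strand, was present in 38.7% of these windows and in 9.1% of the windows of all 27025 genes. The hexamer CTTTCC, on either strand, was present in 46.8% and 26.3%, TATAAA in 11.3% and 14.2%, the YY1 core AAGATGG in 14.5% and 6.5%, and the E-box CACGTG in 8.1% and 7.2%. Matches are descriptions of the letters only. The 45 bases before and 15 after the start are printed below 5′ to 3′ on the strand of the gene, with capitals for CCGGAAG or CTTTCC in either orientation.
Rpl19 (chr11:98026665-98026724, plus strand): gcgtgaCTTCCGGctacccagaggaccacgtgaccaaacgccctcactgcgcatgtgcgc
Rps19 (chr7:24884547-24884606, plus strand): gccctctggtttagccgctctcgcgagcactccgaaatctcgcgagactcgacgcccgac
Rpl28 (chr7:4792920-4792979, plus strand): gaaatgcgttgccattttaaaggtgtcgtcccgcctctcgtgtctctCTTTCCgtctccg
Rpl18 (chr7:45718026-45718085, plus strand): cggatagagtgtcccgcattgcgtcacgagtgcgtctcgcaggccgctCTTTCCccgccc
Rpl26 (chr11:68901521-68901580, plus strand): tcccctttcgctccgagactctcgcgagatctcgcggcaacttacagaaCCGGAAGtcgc
Rps21 (chr2:180257334-180257393, plus strand): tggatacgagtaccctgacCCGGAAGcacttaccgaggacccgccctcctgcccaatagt
Rps6 (chr4:86857353-86857412, minus strand): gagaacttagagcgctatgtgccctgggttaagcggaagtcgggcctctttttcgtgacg
The members that share the order of levels described above (Rpl19, Rps19, Rpl28 and Rpl18) did not share 1 of these motifs in the printed 60 bases: Rpl19 carried the ETS core, Rpl28 and Rpl18 the hexamer, and Rps19 neither. Over the whole window Rps19, Rpl28 and Rpl18 held the hexamer and Rpl19 did not. The windows of Rpl19 and Rpl18 lie at a transcript start downstream of the outermost annotated start of the gene, those of the other members printed here at the outermost start.

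Genes that make and regulate ribosomes were described from lists. None of them passed between the plasmid groups. Between siRNA and negative control, 5 of 50 assembly and export factors rose and 1 fell, 12% in all beside 12.4% of all genes (7.77% higher, 4.66% lower), a share near the background. Among them Utp4 and Utp15, of the small subunit processome, rose by 0.85 and 0.83, Tsr2, the chaperone of Rps26, rose by 0.60, and Lyar, a nucleolar protein that no siRNA array had well above background, was at least 10.4-fold lower (limma adjusted p = 0.00343). Nucleolin (Ncl) fell by 1.47 (SE 0.13, limma adjusted p = 0.00257) and Nolc1, which chaperones small nucleolar particles, rose by 1.01, the only 2 of 11 nucleolar particle genes that passed. Polr1b, a subunit of RNA polymerase I, rose by 1.24 and Taf1a, of its initiation factor, fell by 0.89, of 11 genes.

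The list of the mTOR and S6 kinase arm also holds Myc and the Rps6ka kinases. Of its 22 measured genes, Rps6ka3, Myc and Mlst8 rose, by 0.89, 0.80 and 0.57, and Tsc2, an inhibitor of mTOR, fell by 0.82. This makes 13.6% higher and 4.55% lower beside the same 7.77% and 4.66% of all genes. None of the 19 translation factors and other mRNAs with a pyrimidine tract passed in any of the 4 comparisons. Of 77 mitochondrial ribosomal protein genes, 2 rose and 3 fell against the negative control (6.49%, beside 12.4% of all genes), the lowest being Mrpl28 at -1.62, and their median was 0.06.

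Against the plasmid groups, 13 mitochondrial ribosomal protein genes fell and 1 rose of 77 (16.9% and 1.3%, beside 8.12% lower and 10.6% higher over all genes), with a median of -0.18, like that of the cytosolic members. Ncl fell by 1.57 and Fbl, the methyltransferase of box C/D particles, by 0.48. These were 2 of 11 nucleolar particle genes (18.2%). Of 50 assembly factors, 4 fell (8%, beside 8.12% of all genes) and 2 rose (4%, beside 10.6%), shares at or below the background. Pes1, Wdr12, Ftsj3 and Noc2l fell, by 1.33, 1.01, 1.44 and 0.59, and Utp18 and Tsr2 rose. Pes1 and Wdr12 are partners in the complex that processes the large subunit rRNA. In pcDNA3.1 against the negative control, 14 of 50 assembly factors rose (28%, beside 11.3% of all genes), Pes1 by 1.61 and Utp4 by 1.16 among them, and 2 fell (4%, beside 6.64%): Lyar fell by 3.27 and Utp18 fell by 1.98. There Larp1, which binds the pyrimidine tract, rose by 0.70, and Polr1b rose by 0.99. Of 23 measured genes of the mTOR and S6 kinase list, 3 rose in that comparison (13%, beside 11.3% of all genes). In it 1 fell (4.35%, beside 6.64%), Rheb, the activator of mTOR, by 0.92. Between siRNA and the plasmid groups, 1 of 22 rose (Myc, by 0.63) and 1 fell (Rps6ka1, at -0.98). These are 4.55% each, beside 10.6% higher and 8.12% lower over all genes. Fau, a small subunit protein made as a fusion with a relative of ubiquitin, and Rack1, a signalling scaffold on the small subunit, did not pass in any comparison and differed by at most 0.18 in either direction.

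The siRNA group is shared by 2 of these comparisons, pcDNA3.1 by 3 and the negative control by 2, so their values are not independent of each other.

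**Figure D5:**
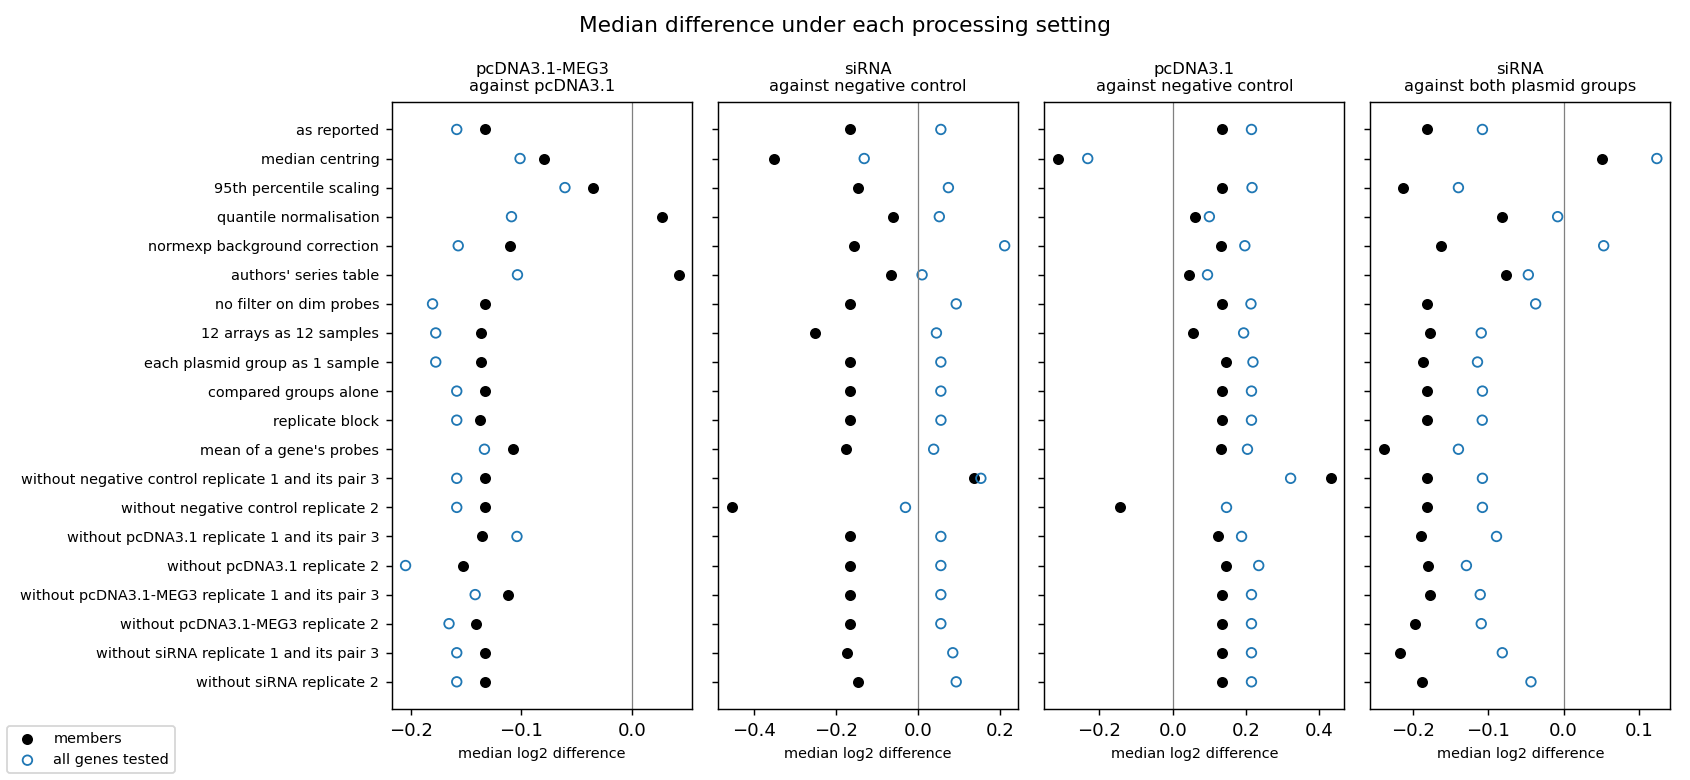
Median log2 difference of the members (filled) and of all genes tested (open) under each processing setting, in the 4 comparisons (each panel has its own axis). The members' median for siRNA against negative control is negative under every setting except without negative control replicates 1 and 3, where it is 0.14, and that for siRNA against the plasmid groups is positive only under median centring, at 0.05.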

How the data were processed

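RNA from 12 samples was hybridised to one-colour Agilent arrays of 44397 spots. The deposited intensities are the authors' Agilent Feature Extraction output, version 11.0.1.1 per the file headers, with background subtracted in the processed signal. The authors' series table holds processed intensities, deposited with an unstated scaling. They were put on the log2 scale and served as an alternative. The headers name mm9, so probes were named through RefSeq accessions only (27234 of 39429 probes); no coordinate comes from the arrays.

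Outlying spots and 1377 control spots were left out. The processed signal was put on the log2 scale, minus the array's 75th percentile. 29611 probes were kept, and the brightest kept probe stood for each of 24573 genes. Replicates 1 and 3 were averaged, and 8 samples (2 a group) were fitted in limma 3.58.1 (R 4.3.3) with 4 residual degrees of freedom; differences are log2, with Benjamini-Hochberg adjustment over all genes. The fit was tested on simulated data. A sample with no usable spot was left out for that gene. The transcribed pseudogene Rps4l was left out.

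Members and lists were chosen with earlier results of these data known. Named are members past the threshold, the 3 highest and 3 lowest of each comparison, the 5 brightest and 5 dimmest, paralogue pairs, members with known other roles, and called genes of the lists, at most 4 a list by smallest p; a few genes that this rule names are not reported here. Replicate numbers did not pair the samples (correlations -0.0736, -0.0361 and 0.00879). Alternatives varied scaling, background, filter, probes and samples.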

Additional observations from a re-analysis of the deposited data

How the results depend on the processing

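No difference of a called member changed sign. The number of members called was 0 between the plasmid groups, 1 for siRNA against negative control, 2 for pcDNA3.1 against negative control and 7 for siRNA against both plasmid groups. Taking 12 arrays as 12 samples, which counts rescans as replicates, gave 8, 16, 9 and 23. That setting called 12.3%, 40.2%, 49.3% and 52.1% of all genes. Fitting the compared groups alone gave 6, 0, 1 and 26, beside 7.96%, 0.648%, 20.7% and 38.4% of all genes. With each plasmid group as 1 sample no call on a member held, in a fit where few genes of any kind passed. The replicate block left 0, 0, 1 and 5, beside 0.00407%, 7.5%, 12.7% and 13.7% of all genes. Replicate numbers share no pairing. For siRNA against negative control the count was 3 with median centring and 2 with the 95th percentile, beside 10.9% and 14.5% of all genes. It was 0 with quantile normalisation (14% of all genes), 3 with normexp (9.02%) and 2 with the mean of a gene's probes (12.8%). For pcDNA3.1 against negative control it was 1 with quantile normalisation, normexp, the series table and no filter. These settings called 19.8%, 12.6%, 20.1% and 10.1% of all genes. For siRNA against the plasmid groups it was 11 with the 95th percentile (21.1% of all genes) and 14 with the mean of probes (19.9%). Between the plasmid groups, 5 passed in scan 1 of their slide alone, a fit for which the share of all genes was not counted. When a sample was left out, the share of all genes called changed too, so the ranges given next do not describe the members alone. In each comparison the highest count came without a negative control sample, in a fit that called a larger share of all genes than the main fit. Outside the plasmid comparison, the lowest counts came from fits that called a smaller share than the main fit. Leaving out a sample gave 0 to 9, 0 to 34 (17 without negative control replicates 1 and 3), 0 to 37 (10 without negative control replicate 2) and 1 to 26.

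The median between the plasmid groups was -0.035 with the 95th percentile, 0.027 with quantile normalisation and 0.042 in the series table. For pcDNA3.1 against negative control it was -0.31 with median centring. For siRNA against the plasmid groups it was 0.0505 with median centring, -0.081 with quantile normalisation, -0.077 in the series table and -0.24 with the mean of probes. Leaving out a sample gave -0.15 to -0.11, -0.45 to 0.14, -0.14 to 0.43 and -0.22 to -0.18. Where a sample left an arm with 1, it was assumed to vary like the other groups. The cause of these changes was not tested. The normexp setting used the median spot signal, since no mean signal was used here, and local backgrounds capped at the 99.9th percentile of the array, a cap chosen after seeing the data. Signal over background limits Rpl3l, Rpl10l and Rpl39l, and the small number of samples limits the precision.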
